A study of Rattus norvegicus with 16 samples.

Results

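Rats make vitamin C in the liver, and 3 genes of that route are described here across fasting and re-feeding: Ugdh, Rgn and Gulo. They were listed by name and taken from an expression table in which each has exactly 1 row (transcript clusters 7118521, 7379258 and 7139274), so 3 of 3 listed genes were found among 13215 genes with a row of their own. The rule that a gene with several rows is represented by its brightest therefore made no choice here. The genes were chosen by name with earlier results of these data known, among them the measured fall of Rgn between the phases of fasting. All differences of Rgn that involve the P2 or P3 livers rest on arrays that showed that fall. They are given below as descriptions with no p-value.

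The table holds exon array signals from the livers of 16 male Sprague Dawley rats in 4 groups of 4, with 1 array per rat. One group ate throughout (fed), the second was fasted as far as phase 2 (P2), the third as far as phase 3 (P3), and the last reached phase 3 and then ate again for 2 days (P3r2). A long fast is fuelled mainly by body fat in phase 2, while the loss of body protein speeds up in phase 3. The rats were randomly divided among the groups, no genetic change or drug is named, and the sources used here give neither the length of the fasts nor the age of the rats. The fed rats are the never fasted controls, and no group of phase 2 rats was re-fed. All values are log2 signals, in which 1 unit is a 2-fold difference. The signals of different genes are not compared with each other, since probes differ in brightness.

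Ascorbate synthesis branches from glucose metabolism. UDP-glucose is oxidized to UDP-glucuronate by UDP-glucose dehydrogenase (Ugdh), glucuronate released from it is reduced to L-gulonate, regucalcin (Rgn) closes gulonate to a lactone, and L-gulonolactone oxidase (Gulo) makes the last step to ascorbate. Gulo passes electrons to oxygen and so makes hydrogen peroxide for each ascorbate it forms. Humans and guinea pigs lack a working Gulo and need vitamin C from food. UDP-glucuronate is also the sugar donor for conjugating bilirubin, drugs and hormones, so Ugdh serves more than ascorbate. Rgn is also known as senescence marker protein 30 and lies on the X chromosome.

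Because the 3 genes were all lowest at phase 3, the bases just before their starts are shown for those in RefSeq's promoter table for build GRCr8, which held 2 of the 3, Rgn and Ugdh. Each run covers the 250 bases before the annotated start, 5′ to 3′ on the gene's own strand, which is minus for Rgn (chrX:4187958-4188207) and plus for Ugdh (chr14:43202268-43202517). Capitals mark the matches, on either strand, to 6 motifs searched by their letters.
Rgn: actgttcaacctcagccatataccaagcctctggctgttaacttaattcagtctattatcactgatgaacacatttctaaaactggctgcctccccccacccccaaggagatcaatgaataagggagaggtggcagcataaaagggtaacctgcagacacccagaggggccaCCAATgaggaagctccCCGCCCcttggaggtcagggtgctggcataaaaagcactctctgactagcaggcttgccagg
Ugdh: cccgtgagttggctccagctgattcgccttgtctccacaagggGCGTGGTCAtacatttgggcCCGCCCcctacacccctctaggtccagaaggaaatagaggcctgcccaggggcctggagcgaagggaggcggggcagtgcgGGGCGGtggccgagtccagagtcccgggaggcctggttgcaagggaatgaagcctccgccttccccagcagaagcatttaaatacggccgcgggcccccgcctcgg
The Rgn run held 1 CCAAT box (CCAAT, bases -78 to -74 from the start) and 1 GC box (GGGCGG, read on the opposite strand, -62 to -57). The Ugdh run held 2 GC boxes (-187 to -182 and -106 to -101) and 1 match to the antioxidant response element (TGACNNNGC, on the opposite strand, -207 to -199). No match overlapped another. Of 33469 promoters of the same length, 34% held CCAAT, 30.5% a GC box and 10.1% the antioxidant response element. The TATA box (TATAAA, in 12.9% of promoters), an HNF1 half-site (GTTAAT, 6.45%) and a glucocorticoid receptor half-site (TGTTCT, 17.5%) were not among the letters of these windows. The G and C content was 51.6% for Rgn and 66% for Ugdh, against a median of 51.2%. These matches describe the letters and show no binding.

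The arrays were alike in their centre and less so in their width. Median log2 signals lay between 4.34 and 4.46, and standard deviations between 2.12 and 2.37. The 3 narrowest arrays were fed 2, P2 4 and P3 3, at 2.12, 2.14 and 2.18. The tissue label was checked on hepatocyte markers: Alb, Ttr and Serpina1 had mean signals of at least 12 in every group, and the log2 of the summed signal of 7 hepatocyte markers was 15.53 to 15.77 in fed livers, 15.78 to 15.83 at P2, 15.53 to 15.57 at P3 and 15.71 to 15.77 after re-feeding. Of these 7 markers, 3 fell and 1 rose at phase 3 against fed, where 8.06% and 11.3% of all rows did. Asgr1, a dimmer marker that weighs little in the sum, was among those that fell. Its mean was 10.86 in fed and 9.77 at P3 (-1.09 ± 0.32, limma adjusted p = 0.023), with overlapping values. In the text, a gene is called where its adjusted p was below 0.05 in limma over 18885 rows, and errors of differences are standard errors of that fit, with 4 arrays per group.

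All 3 genes were among the brighter ones. Mean signals over the 16 arrays were 9.87 for Ugdh, 9.89 for Rgn and 10.75 for Gulo, with 96.4%, 96.5% and 98.3% of genes dimmer. In each gene the order of group means placed P3 lowest and P2 next, with fed and P3r2 together at the top. Fed and P3r2 overlapped in all 3 genes and did not differ beyond their spread.

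Ugdh, the enzyme that makes UDP-glucuronate, stood at 10.29, 10.13, 10.40 and 10.62 in the fed livers, at 10.05, 10.09, 10.02 and 9.87 at P2, at 8.52, 9.07, 8.17 and 8.85 at P3, and at 10.37, 10.52, 10.36 and 10.53 after re-feeding. The P3 values lay below all values of the other groups, and every P2 value lay just below the lowest fed value. The fall from fed to P3 was -1.71 ± 0.16 (limma adjusted p = 1.7e-06), which left 30.7% of the fed signal. From P2 to P3 the difference was -1.35 ± 0.16 (limma adjusted p = 2.4e-05). From fed to P2 it was -0.35 ± 0.16 and was not called (limma adjusted p = 0.16).

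Rgn, the lactonase before the final step, stood at 11.56, 10.87, 11.59 and 11.69 in the fed livers. At P2 its values were 11.00, 10.65, 10.62 and 11.00. At P3 they were 7.53, 6.91, 3.80 and 5.45, and after re-feeding 11.29, 11.44, 11.35 and 11.48. The P3 livers were far below all others and far apart from each other, while the fed and P2 values overlapped through fed 2. The P3 mean left 2.2% of the fed signal, a difference of -5.51 ± 0.55, also given as a description. The value of 3.80 in P3 3 lay below that array's median over all rows, 4.41. Sizes that rest on so dim a signal are uncertain. Of the 18885 rows tested, 15 fell further between fed and P3, a place that is no finding given how Rgn was chosen. Against P2 the P3 mean was lower by 4.90 ± 0.55 log2 units. From fed to P2 the difference was -0.61 ± 0.55, also a description. That error carries the wide spread of the P3 values. In a fit of fed and P2 alone the difference was again -0.61. One P3 liver weighed on these sizes: without P3 3 the difference from fed was -4.80 and that from P2 was -4.19, both smaller by more than 1.5-fold on the linear scale. With all arrays centred and scaled to the same spread the difference from fed was -5.54.

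Gulo, which makes ascorbate itself, stood at 12.04, 11.94, 11.89 and 11.80 in the fed livers. At P2 its values were 10.69, 10.50, 10.74 and 10.05, and at P3 they were 9.38, 9.32, 7.58 and 8.62. After re-feeding they were 11.81, 11.91, 12.00 and 11.69. The fed, P2 and P3 values fell in 3 separate steps with no overlap. The share of all rows separated in this way between fed and P2 is not given here. The separation at P2 is therefore only a description, for Ugdh too. Gulo was called at P2, with a difference from fed of -1.42 ± 0.29 (limma adjusted p = 0.0067). The further fall from P2 to P3 was -1.77 ± 0.29 (limma adjusted p = 4.0e-04), and from fed to P3 it was -3.19 ± 0.29 (limma adjusted p = 1.4e-06). The P2 livers held 37.3% of the fed signal and the P3 livers 10.9%.

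**Figure D1:**
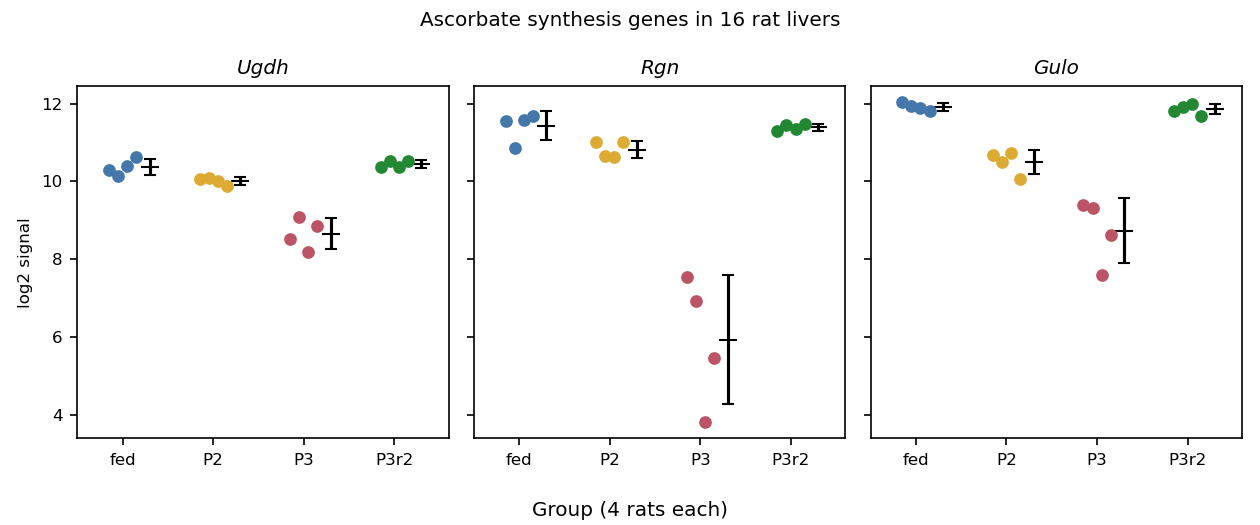
log2 signal of Ugdh, Rgn and Gulo in each of 16 livers (coloured points, 4 rats per group on the x axis), with the group mean and standard deviation as a black bar. P3 values lie below every other group in all 3 panels and are widest for Rgn (3.80 to 7.53), and P3r2 values overlap the fed values; heights are not comparable between genes.

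The 3 genes thus shared the fall at P3 and divided it differently between the phases. Of the whole fall from fed to P3 on the log2 scale, 44.6% was present at P2 for Gulo, 20.6% for Ugdh and 11.1% for Rgn. These shares are ratios of group means and were not tested against each other. Rgn was chosen with its fall between the phases known, which by itself favours a low share at P2. Its share is therefore a description and no finding. Over all rows, 6.58% were called lower at P2 than fed, where Gulo was and Ugdh was not. At P3 against fed, 8.06% of rows were called lower and 8.05% had all 4 values below all fed values, and Gulo and Ugdh met both. At P3 against P2, 8.53% of rows were called lower and 9.36% had all values below, and Gulo and Ugdh again met both. The P3 values of Rgn also lay below all fed and P2 values, which is no finding given how it was chosen. In bulk liver, fewer cells that express a gene and less RNA per cell cannot be told apart.

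After 2 days of re-feeding the 3 mRNAs were higher than at P3, with means within 0.08 log2 units of the fed means. The mean of Rgn was higher in P3r2 than in P3 by 5.47 ± 0.55, a description that uses the same P3 values as its choice. Gulo rose by 3.13 ± 0.29 (limma adjusted p = 1.7e-06) and Ugdh by 1.79 ± 0.16 (limma adjusted p = 1.1e-06). Over all rows 10.5% were called higher in this comparison. The return equalled 99.3% of the fall for Rgn, 98% for Gulo and 105% for Ugdh on the log2 scale. Without P3 3 the difference of Rgn was 4.76.

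Re-fed livers and never fasted livers were close for these genes. The differences were -0.04 ± 0.55 for Rgn (limma adjusted p = 0.99), -0.06 ± 0.29 for Gulo (limma adjusted p = 0.97) and 0.08 ± 0.16 for Ugdh (limma adjusted p = 0.92). None of the 3 was called, where 2.72% of all rows were. A missed threshold does not show equal levels, and the standard error of Rgn in this comparison carries the wide spread of its P3 values. With the arrays' own standard deviations as a covariate the difference of Rgn was -0.46 (limma adjusted p = 0.78).

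Against P2, the re-fed livers were higher in Gulo by 1.36 ± 0.29 (limma adjusted p = 0.0067), where 11.3% of all rows were called higher. When the fit also took the arrays' own standard deviations as a covariate, this difference was 0.95 and no longer called (limma adjusted p = 0.16). Ugdh was higher by 0.44 ± 0.16 and was not called (limma adjusted p = 0.079). Rgn was higher by 0.57 ± 0.55, given as a description since its P2 values were part of the known fall. All 4 re-fed values lay above all 4 P2 values in Gulo and Ugdh, as they did in 14.9% of all rows. Those of Rgn did too, which is again a description. In a fit of these 2 groups alone, which leaves out the P3 spread, Ugdh was called (0.44, limma adjusted p = 0.017). Rgn again had 0.57 there. With the covariate above, in contrast, Rgn turned to -0.19 and Ugdh had 0.21 (limma adjusted p = 0.64). With arrays scaled to 1 spread Rgn had 0.24, and Ugdh had 0.16 and was not called.

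The P3 livers differed among themselves, and of the 3 genes most in Rgn. Its standard deviation was 1.66 at P3, against 0.38 in fed, 0.21 in P2 and 0.09 in P3r2. At P3, 22 of 18885 rows (0.116%) had a larger standard deviation, and the median row had 0.23. Rgn was chosen with its fall in these same livers known, so its place is a description and no finding. For Gulo the standard deviation at P3 was 0.84, with 2.31% of rows above it, and for Ugdh it was 0.39, with 20.7% above it. Rgn and Gulo ordered the 4 P3 livers alike, with P3 1 highest, then P3 2 and P3 4, and P3 3 lowest. Ugdh had the same lowest liver and P3 2 as its highest. P3 3 was also the P3 array of narrowest overall spread (2.18, against 2.25 to 2.32 in the other P3 arrays), and the part of that in the order was not tested.

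For each gene, the genes of most similar pattern were found by the root mean square difference of log2 values over the 16 arrays, after each gene was centred on its own mean. A value of 0 would be an identical pattern, and all genes share the same 16 arrays. Nearest to Rgn were Hao1 (0.28), the peroxisomal glycolate oxidase, Fabp1 (0.29), the liver fatty acid binding protein, Dpys (0.38), a dihydropyrimidinase of pyrimidine breakdown, Cyp2c11 (0.42), a steroid-hydroxylating cytochrome P450 found mainly in male rats, and Sult1c3 (0.51), a sulfotransferase. Rgn itself departed from its own mean by 2.42 on this measure. In the P3 livers Hao1 stood at 8.37, 8.49, 4.31 and 6.32 and Fabp1 at 7.37, 7.47, 4.27 and 5.77, with P3 3 lowest and P3 4 next in both. These arrays weigh most in the measure that picked them, so their likeness to Rgn there follows from the choice.

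Nearest to Gulo were Nnt (0.27), the mitochondrial transhydrogenase that makes NADPH, Ggcx (0.30), the vitamin K-dependent carboxylase, Gpd1 (0.32), a glycerol phosphate dehydrogenase, Mgll (0.34), which splits monoacylglycerols, and Faah (0.34), which splits fatty acid amides. Gulo departed from its own mean by 1.36. Nnt fell in steps like Gulo, with group means of 10.17 fed, 9.07 at P2, 7.46 at P3 and 10.31 after re-feeding. It was picked for its nearness over these same arrays, so this likeness follows from the choice. Nearest to Ugdh were Sh3bgrl1 (0.17), Dnajc3 (0.19) and Calr (0.20), both proteins of the endoplasmic reticulum, Pgrmc2 (0.20) and Ctsc (0.20), the lysosomal cathepsin C. Ugdh departed from its own mean by 0.75. None of the 3 genes was among the 5 nearest of another. Among the genes ranked by nearness to Rgn, Gulo held place 57 (1.26) and Ugdh place 271 (1.72). By nearness to Gulo, Ugdh held place 197 (0.70) and Rgn place 2358. By nearness to Ugdh, Gulo held place 2560 and Rgn place 13109. The measure takes in the size of a change as well as its shape.

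**Figure D2:**
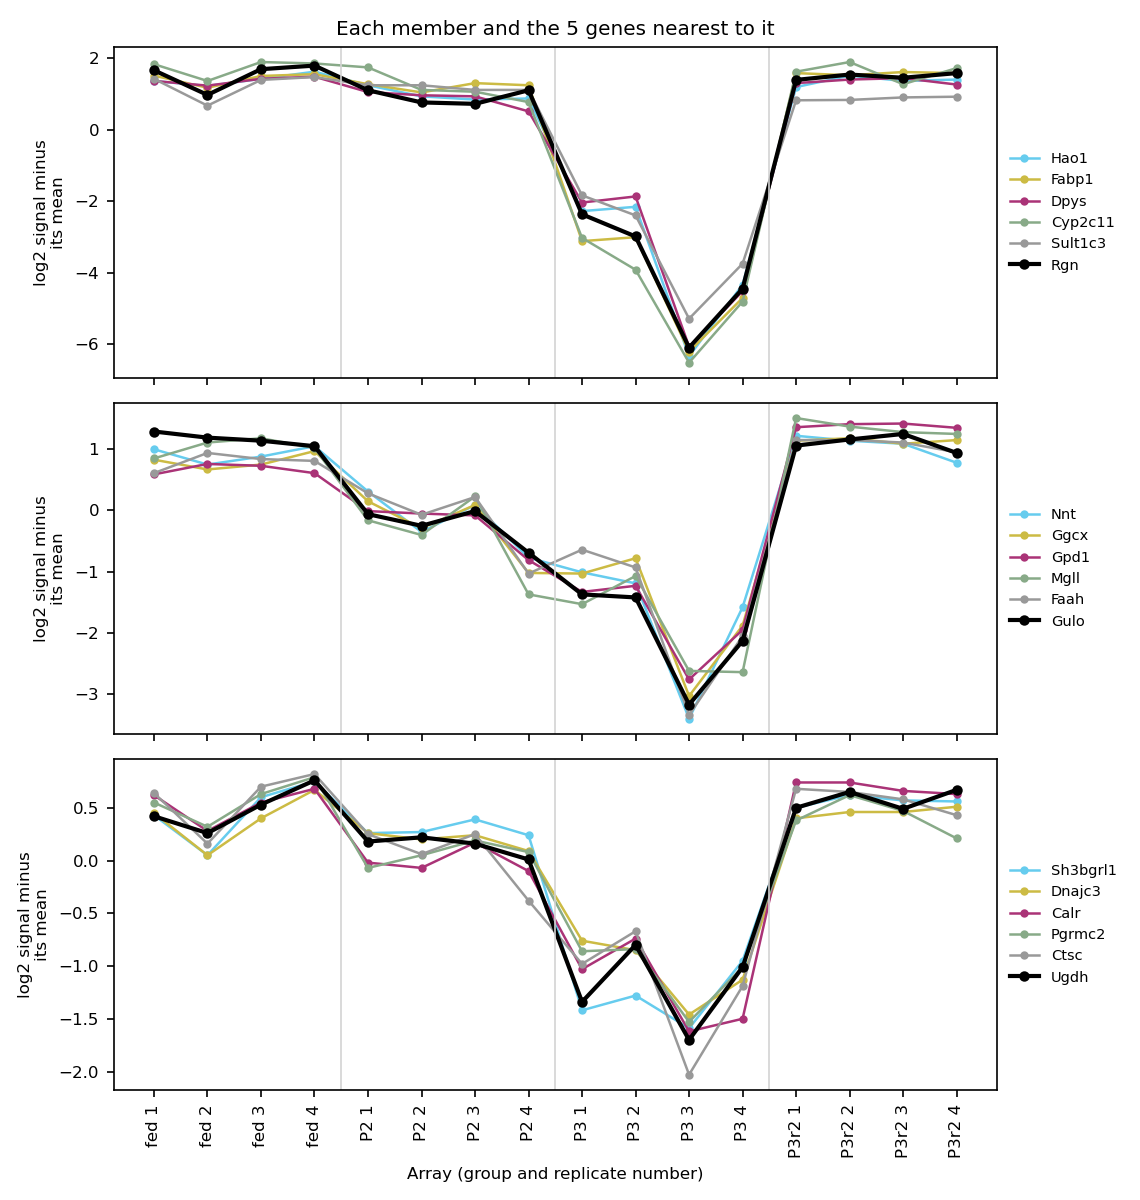
log2 signal minus each gene's mean over the 16 arrays, for Rgn (top), Gulo (middle) and Ugdh (bottom) in black and for the 5 genes nearest to each in colour. Arrays stand in group order on the x axis with grey lines between groups; Rgn falls mainly at P3, Gulo already at P2, and P3 3 is the lowest array of all 3.

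The rest of the route was read from a list of 8 genes, 7 of them measured. At P3 against fed 5 of the 7 fell and none rose, with a median of -1.46 against 0.03 over all rows, and the 3 genes above, Rgn among them, are 3 of those 5. Over all rows 8.06% fell. The other 2 were Pgm1 and Akr1a1. Pgm1, phosphoglucomutase at the entrance to UDP-glucose, had a difference of -1.46 ± 0.29 (limma adjusted p = 0.0018). Its values were 10.56, 10.15, 10.49 and 10.37 in fed and 9.34, 9.47, 8.01 and 8.90 in P3, with no overlap. Akr1a1, the aldehyde reductase that turns glucuronate to gulonate, fell by 0.50 ± 0.11 (limma adjusted p = 0.0025). It stood at 10.61, 10.30, 10.75 and 10.77 in fed and at 10.07, 10.11, 10.15 and 10.09 in P3. Akr1a1, which lies between Ugdh and Rgn in the route, thus had the smallest of the 5 falls, and its P3 standard deviation of 0.03 was the smallest too. Gusb (-0.16 ± 0.21), which frees glucuronate from conjugates in lysosomes, and Akr1b1 (-0.01 ± 0.20), aldose reductase, were not called at P3 (limma adjusted p = 0.73 and 0.98).

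At P2 against fed, Gulo was the single gene of the 7 called, where 6.58% of all rows were called lower and 6.13% higher. Without the 3 arrays of narrow spread, 2 were called. Pgm1 had -0.93 ± 0.29 at P2 and just missed the threshold (limma adjusted p = 0.051). After re-feeding 6 of the 7 rose against P3, where 10.5% of all rows did, with a median of 1.66. Rgn, Gulo and Ugdh are among those 6, and the rise of Rgn uses the P3 values known when it was chosen. None of the 7 was called against fed, where only 2.72% of all rows were. Akr1a1 in P3r2 stood at 10.94 to 11.07, above all fed values, with a difference from fed of 0.40 ± 0.11 (limma adjusted p = 0.055).

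**Figure D3:**
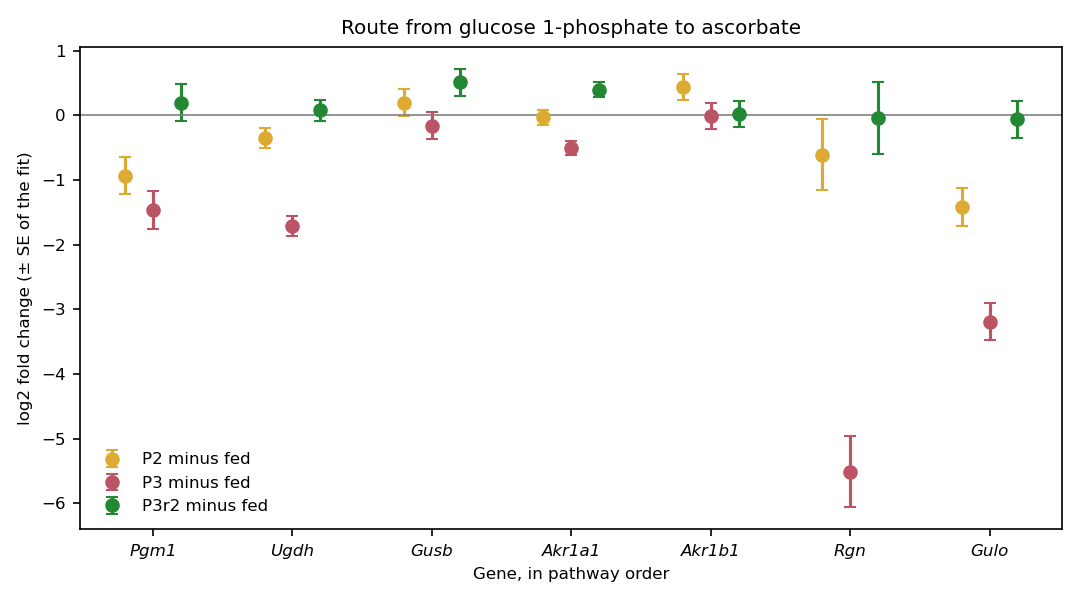
log2 fold change against fed livers (y axis, points with the standard error of the fit, 4 arrays per group) for the 7 measured genes of the route, in pathway order on the x axis, at P2, P3 and P3r2. At P3, Rgn (-5.51) and Gulo (-3.19) are lowest, Ugdh lies at -1.71, Pgm1 at -1.46, Akr1a1 lies at -0.50, and all P3r2 points lie between -0.06 and 0.51.

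Users of the same intermediates were measured for 5 of 8 genes on a second list. At P3 against fed 4 of 5 fell, where 8.06% of all rows did, with a median of -1.17. Cryl1, which oxidizes gulonate away from ascorbate, had -1.70 ± 0.36 (limma adjusted p = 0.0029). Sord, sorbitol dehydrogenase (-1.34 ± 0.17), Xylb, xylulokinase (-1.17 ± 0.36), and Uxs1, which turns UDP-glucuronate to UDP-xylose (-0.66 ± 0.17), fell too. The P3 and fed values of Uxs1 overlapped. Miox, which splits inositol to glucuronate, went its own way: it rose at P2 by 1.27 ± 0.21 (limma adjusted p = 0.0017), where 6.13% of all rows rose, and was not called at P3 against fed (-0.12 ± 0.21). After re-feeding all 5 rose against P3, where 10.5% of all rows did, by a median of 1.28. Of 21 glucuronosyltransferases, which use UDP-glucuronate, only 5 had a row of their own, and family members share sequence, so their signals may mix. Ugt2a1 and Ugt2b7 were dim throughout, with group means of 2.23 to 2.41 and 2.22 to 2.43. At P3 Ugt2b35 (-1.10 ± 0.24) fell and Ugt2b1 (0.97 ± 0.23) rose against fed, with overlapping values for Ugt2b35.

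Transport and recycling of ascorbate were covered by 14 measured genes, of which 4 rose and 2 fell at P3 against fed, where 11.3% and 8.06% of all rows did. The 2 sodium-dependent ascorbate transporters went opposite ways at P3. Slc23a1 stood at 9.83, 10.05, 9.81 and 9.61 in fed, at 8.99, 8.62, 8.85 and 7.41 in P2, at 8.27, 8.03, 5.32 and 7.08 in P3, and at 9.86, 10.08, 9.82 and 9.77 in P3r2. Its difference between P3 and fed was -2.65 ± 0.49 (limma adjusted p = 8.8e-04), its P2 difference was -1.36 ± 0.49 and not called (limma adjusted p = 0.078), and it ordered the P3 livers as Rgn and Gulo did. Slc23a2 fell at P2 by 0.76 ± 0.23 (limma adjusted p = 0.042) and was higher than fed at P3 by 0.70 ± 0.23 (limma adjusted p = 0.044), with overlapping values. Slc2a1, a glucose transporter that also carries dehydroascorbate, rose at P3 by 1.70 ± 0.28, and Slc2a2, the main glucose transporter of hepatocytes, fell at P2 by 0.84 ± 0.23 and had 0.66 ± 0.23 at P3 (limma adjusted p = 0.058). Cyb5r3, a reductase that can return the ascorbate radical to ascorbate, fell at P3 by 2.33 ± 0.32 (limma adjusted p = 6.7e-05). Both Slc23a1 and Cyb5r3 rose on re-feeding, by 2.71 ± 0.49 and 2.70 ± 0.32.

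**Figure D4:**
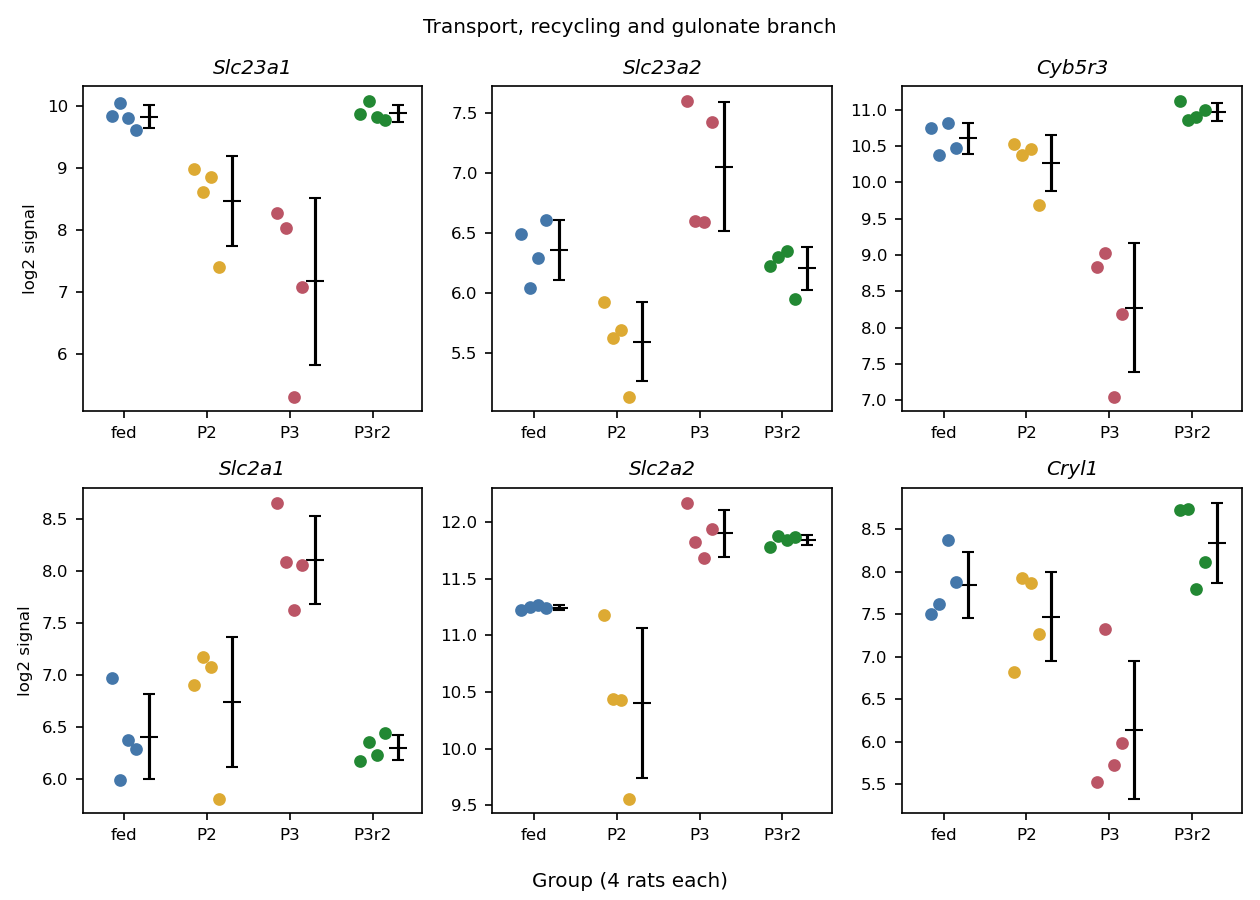
log2 signal of the ascorbate transporters Slc23a1 and Slc23a2, the reductase Cyb5r3, the glucose transporters Slc2a1 and Slc2a2, and Cryl1 of the gulonate branch in each of 16 livers (coloured points), with group mean and standard deviation as black bars; the y axis differs between panels. By group mean, Slc23a1, Cyb5r3 and Cryl1 are lowest at P3, and Slc23a2 and Slc2a1 are highest there.

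Some enzymes need ascorbate as a cofactor. Of 17 measured dioxygenases and monooxygenases, 4 rose and 2 fell at P3 against fed, where 11.3% and 8.06% of all rows did, with a median of 0.03, the same as over all rows. Some of them were dim throughout, such as Dbh, with group means of 3.81 to 3.93, so a fall could hardly show there. The 2 that fell were Bbox1 (-1.77 ± 0.25) and Tmlhe (-0.97 ± 0.20), the ascorbate-dependent enzymes of carnitine synthesis. Those that rose included Egln3 (0.85 ± 0.13), which hydroxylates hypoxia-inducible factors. Hif1an, which also acts on those factors, fell at P2 (-0.97 ± 0.21) and was not called at P3 (0.30 ± 0.21).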

How the data were processed

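Liver RNA from each rat was read on 1 Affymetrix Rat Exon 1.0 ST array. The deposited values are log2 signals, 1 for each transcript cluster, made by the authors with Expression Console 1.1 after GCOS 1.4, as the submitters' processing notes list them. Of summarisation, background correction and genome build the sources used here say nothing. The log2 scale was inferred from the range, 0.84 to 13.6. Array signals can be compressed at both ends, so folds of very bright or dim genes may come out too small.

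Of 19418 rows, 533 with identifiers below the annotated range were left out of the tests. Symbols came from the array's own annotation, which is old, matched by gene number to RefSeq GRCr8. The values as deposited were fitted in limma 3.58.1 (R 4.3.3) with 1 mean for each of the 4 groups on all 16 arrays (lmFit, 6 contrasts, eBayes, two-sided, Benjamini-Hochberg over 18885 rows). The steps were tested on simulated data. Precision is limited by the number of arrays. Replicate numbers were not used as pairs. The members, the 7 pathway lists and the 6 lists of cell markers were chosen with earlier results of these data known. Named are the 3 members, all measured genes of the route list, the ascorbate transporters, and the 5 nearest genes of each member. Up to 4 called genes of each other list, those with the largest changes, are named too. Gusb, Akr1b1 and Uxs1 are named as remaining members of their short lists. The genes Alb, Ttr, Serpina1, Asgr1, Dcn, Col3a1, Lrat, Reln, Dbh, Cftr, S100a8, Clec4g, Ugt2a1 and Ugt2b7 were named after their values were seen. Alternatives covered normalization, moderation, weights, covariates, filters, thresholds, a replicate block and leaving out arrays. Figures were drawn with matplotlib 3.10.9.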

Additional observations from a re-analysis of the deposited data

Results flagged for a closer look

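Among the 12 groups of 4 values (3 genes in 4 groups), 1 held a value set apart from the rest. In fed livers, Rgn in fed 2 stood at 10.87 while the others stood at 11.56 to 11.69, and this gap was 0.85 of the whole range, above Dixon's critical value at 95%. Chance flags about 1 in 20 such groups. Fed 2 is also 1 of the 3 arrays of narrow spread, with a standard deviation of 2.12 over all rows. Without it the difference of Rgn between P2 and fed was -0.79. The low P3 value of Rgn in P3 3 was not set apart by this measure.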

How the results depend on the processing

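Of 396 comparisons of a gene's difference with its value under an alternative, 385 kept direction and side of the threshold. The calls of Gulo and Ugdh at P3 against fed, P3 against P2 and P3r2 against P3, and of Gulo at P2 against fed, were kept under all 22 alternatives each. The sign turned in 7 cases, 6 of them for P3r2 against fed and 1 for Rgn at P3r2 against P2. For P3r2 against fed, Ugdh had -0.02 after quantile normalization, -0.09 with arrays scaled to 1 spread and -0.04 with the spread as a covariate, and Rgn ran from -0.23 to 0.05 with single arrays left out, turning to 0.01, 0.02 and 0.05 without fed 1, fed 3 and fed 4. For P3r2 against P2, the spread as a covariate gave Rgn -0.19 and Gulo 0.95 (no longer called). A fit of the 2 groups alone called Rgn (0.57) and Ugdh (0.44), and array weights called Ugdh (0.39). That call of Rgn is no finding, since its P2 values were part of the known fall. The spread differs by group, so the spread as a covariate also takes up part of a group difference. Leaving out single arrays moved Rgn at P3 against fed between -6.04 and -4.80, Gulo between -3.41 and -2.81 and Ugdh between -1.84 and -1.54. The replicate block changed no call of the 3 genes and left Rgn at P3 against fed at -5.51. Arrays of the same number did not deviate together: over 24 pairs the correlation of their deviations ran from -0.40 to 0.26, and an array was closest to its own number in 9 of 48 cases.

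Counts of called rows moved as follows. At P2 against fed 1568 were called with the 2 groups alone, 819 at a threshold of 0.01 and 1200 to 2574 with single arrays left out (1548, 1277, 1521 and 1200 without fed 1, fed 4, P2 2 and P2 4), against 2400. At 0.01 the count was 2618 for P3 against P2, 2294 for P3r2 against P3, 169 for P3r2 against fed and 1180 for P3r2 against P2. Array weights called 1467 for P3r2 against fed and 4817 for P3r2 against P2, where the spread as a covariate called 789. With single arrays left out these were 242 to 432, against 514 (lower by over 1.5 times without fed 2 or any 1 re-fed array), and 1637 to 3266, against 2954 (likewise without P2 4, P3r2 1, P3r2 2 or P3r2 3). For the lists, 21 of 126 counts moved by over 1.5 times. In the route list, P2 against fed had 2 called over the brighter rows, after quantile normalization and without the 3 narrow arrays (an alternative chosen, for lists, after seeing the data), and P3r2 against fed had 1 over the brighter rows and after quantile normalization. Glucuronosyltransferases had 2 at P3 against P2 after quantile normalization and without the narrow arrays, and 1 at P3r2 against P2 without them. The glucuronate and gulonate list had 1 at P3r2 against fed over brighter rows, and 1 at P3r2 against P2 after quantile normalization and without the narrow arrays. Transport and recycling had 6 at P3r2 against P2 without them. Ascorbate-dependent enzymes had 4 at P2 against fed without them, and after quantile normalization 8 at P3r2 against P3 and 1 at P3r2 against P2. Nrf2 targets had 1 at P2 against fed without them. Car and Pxr targets had 4 at P2 against fed under all 3 settings, and at P3r2 against fed 2 over the brighter rows and 3 without the narrow arrays. The cause of these moves was not tested.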

Other observations

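Nrf2 is the factor of the oxidant response, and Car and Pxr are nuclear receptors that answer drugs. Of 12 measured Nrf2 targets, 4 rose and 4 fell at P3 against fed, where 11.3% and 8.06% of all rows did, with a median of 0.09. Those that rose included Hmox1, heme oxygenase 1 (2.62 ± 0.41), and Abcc3, an export pump for conjugates (2.15 ± 0.34), while Akr7a3, an aldehyde reductase (-1.76 ± 0.38), and Me1, malic enzyme (-1.43 ± 0.38), fell. The P3 and fed values of Me1 overlapped. Of 7 measured targets or members of the Car and Pxr system, 3 rose and 2 fell at P3 against fed, beside the same 11.3% and 8.06%. Por, which passes electrons to cytochromes P450, had 3.40 ± 0.29, and Cyp3a2, a steroid and drug hydroxylase, had -2.38 ± 0.53. Nr1i3, the receptor Car itself, fell between P2 and P3 (-2.60 ± 0.53, limma adjusted p = 0.002).

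Markers of other liver cells were also measured. None of 8 Kupffer cell markers fell and 1 rose at P3 against fed, and none of 3 cholangiocyte and 4 blood cell markers was called. Over all rows 11.3% rose and 8.06% fell in that comparison. Some cholangiocyte and blood cell markers were dim throughout, such as Cftr (group means of 2.42 to 2.61) and S100a8 (1.90 to 2.12). A fall could hardly show in these. Of 6 stellate cell markers, 1 rose and 2 fell at P3 against fed, beside the same shares of all rows. Dcn, decorin, rose by 3.80 ± 0.39 (limma adjusted p = 4.4e-06), while Col3a1, a fibrillar collagen (-1.65 ± 0.50, limma adjusted p = 0.029), and Lrat, which stores retinol as esters (-1.28 ± 0.22, limma adjusted p = 5.5e-04), fell. The P3 values of Col3a1 ran from 5.75 to 9.19 and overlapped the fed values, 8.36 to 9.19. At P2, Lrat (-1.06 ± 0.22) and Reln (-0.92 ± 0.22) fell. Of 2 sinusoidal endothelial markers, 1 rose at P3 against fed, where 11.3% of all rows did. The log2 of the summed stellate signal was 9.81 to 10.59 in fed and 10.25 to 11.25 in P3. Dcn had the highest mean of the 6 at P3 (9.70, against 5.90 in fed), so it weighs most in that sum. The part of cell numbers in the falls of Rgn, Gulo and Ugdh was not tested.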
